A study of Mus musculus with 16 samples.

Results

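Adrenomedullin and its receptors were examined through 6 genes taken by symbol from the deposited table of 25611 entries: the ligand genes *Adm* and *Adm2*, the receptor gene *Calcrl* and the receptor activity-modifying protein (RAMP) genes *Ramp1*, *Ramp2* and *Ramp3*. All 6 were found, and all 6 had enough counts to be tested. RNA was sequenced from thyroid glands of 16 mice of the C57BL/6 strain, 4 in each of 4 groups. WT(ND) mice received the NIH-31 normal diet (ND), WT(LID) mice the low iodine diet TD.95125 (LID), and the *Glis3*-Pax8Cre groups, on ND or on LID, carried the alleles Glis3<tm2Amj> and Pax8<tm1.1(cre)Mbu>. The mice were female, as the study states for its transcriptome. They were 4 weeks old per the methods (1 month per the labels) and had been on their diet for 6 days. Weaning was at 3 weeks per the labels, in all groups. Cre made from the *Pax8* locus deletes exon 5 of *Glis3*, so the deletion is directed at follicular cells, whereas the RNA came from whole glands that also hold vessels, stroma and C cells. The control mice are labelled WT only, and the sources used here do not say whether they carried Cre or a floxed *Glis3*. *Glis3* itself is counted over its whole length and had from 45.2 to 204 CPM (counts relative to the library size) in the 16 mice, which does not show the deletion of 1 exon.

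Adrenomedullin, made from *Adm*, and adrenomedullin 2 or intermedin, made from *Adm2*, are peptide hormones of the calcitonin family that widen vessels and act on endothelial cells. Both signal through the receptor encoded by *Calcrl*, which reaches the cell surface only together with a RAMP. With RAMP1 it forms a receptor for calcitonin gene-related peptide (CGRP), with RAMP2 or RAMP3 a receptor for adrenomedullin, and adrenomedullin 2 can act on all of these pairs. Low iodine raises thyrotropin (TSH), which stimulates follicular cells, and a goitrous thyroid is rich in capillaries.

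The libraries held from 13892352 to 461077969 counted read pairs. *Glis3*-Pax8Cre(ND) replicate 1 held the fewest, WT(ND) replicate 4 the most and *Glis3*-Pax8Cre(ND) replicate 2 156548225. Every other library held from 48886591 to 85741075. Per the methods, sequencing was on NextSeq or NovaSeq machines, and both a TruSeq Stranded mRNA kit and a TruSeq RNA kit were used. Mice are not assigned there to a kit or machine, so neither could be fitted, and their part in the results was not tested. Values are CPM, the count of a gene relative to the library size as scaled by edgeR's TMM method, and means are given ± SD over 4 mice. A difference was called at an edgeR adjusted p under 0.05, that is, the p of edgeR's quasi-likelihood test, adjusted by the Benjamini-Hochberg method over 16630 genes, in 1 fit of the 16 mice. The interaction is the log2 fold change between genotypes under LID minus that under ND. The comparisons share their groups with each other and are not independent of one another. Follicular cell markers were strongly present in every library (98744 to 332534 CPM summed over 8 genes), and 4 libraries, 1 in each group, also held thymocyte markers at over 100 CPM summed over 7 genes (137.9 to 2346 CPM, against 4.16 to 39.2 CPM in the other 12).

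*Adm2* (Entrez 223780) was the member that differed most. It was raised 226-fold by LID in WT thyroids and stayed near 1 CPM in *Glis3*-Pax8Cre thyroids on either diet. In WT(ND) replicates 1 to 4 it had 5.84, 7.63, 1.78 and 8.43 CPM, and in the WT(LID) mice 1619, 1115, 1247 and 1414 CPM. In *Glis3*-Pax8Cre(ND) it had 0.627, 0.775, 0.991 and 1.03 CPM, from 10, 128, 55 and 58 read pairs, and in *Glis3*-Pax8Cre(LID) 1.09, 1.01, 1.00 and 1.09 CPM, from 84, 62, 81 and 62 read pairs. Every WT(LID) mouse therefore stood far above every other mouse, every WT(ND) mouse stood above every *Glis3*-Pax8Cre mouse, and the 2 *Glis3*-Pax8Cre groups overlapped. Within WT(ND), replicate 3 was well below the other 3 mice.

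Under LID, *Adm2* was 1287-fold lower in *Glis3*-Pax8Cre than in WT thyroids (log2 fold change -10.33, standard error 0.45, edgeR adjusted p = 1.95e-09), which placed it 2nd of 16630 genes by size of the log2 fold change and 8th by p. The rise with LID in WT thyroids (log2 fold change 7.82, standard error 0.40, edgeR adjusted p = 8.29e-09) was the largest log2 fold change of either sign in that comparison. Both differences were thus near the top of all genes tested, and that on ND was smaller. On ND the loss was 6.78-fold (log2 fold change -2.76, standard error 0.37, edgeR adjusted p = 0.000232). In *Glis3*-Pax8Cre thyroids the diets differed by a log2 fold change of 0.25 with a 95% interval from -0.59 to 1.09 (edgeR adjusted p = 0.672). The interaction was -7.57 (standard error 0.53, edgeR adjusted p = 1.41e-06). Summed follicular markers, of which *Tg* makes up most, had a median of 274186 CPM in WT(LID) against 124939 CPM in the LID-fed *Glis3*-Pax8Cre mice, a far smaller difference than that of *Adm2*, and their part in it was not tested.

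*Adm* (Entrez 11535), the better known ligand gene, is induced by low oxygen in many cell types. Its level was low in all groups: 6.18, 6.07, 6.17 and 4.82 CPM in WT(ND), 7.09, 7.47, 6.24 and 5.46 CPM in *Glis3*-Pax8Cre(ND), 9.10, 5.32, 4.33 and 4.54 CPM in the WT(LID) mice, and 6.44, 6.51, 5.51 and 4.59 CPM in the *Glis3*-Pax8Cre(LID) mice. The ranges of all 4 groups overlapped, and the highest value was WT(LID) replicate 1. No comparison called *Adm*: the log2 fold change was -0.02 between genotypes under LID (95% interval -0.46 to 0.43, edgeR adjusted p = 0.964), 0.18 on ND (-0.27 to 0.62, adjusted p = 0.589), 0.01 between diets in WT (-0.44 to 0.45, adjusted p = 0.988) and -0.19 in *Glis3*-Pax8Cre thyroids (-0.63 to 0.26, adjusted p = 0.540). These intervals leave room for changes of up to 0.63 on the log2 scale, and the sign under LID turned with several settings, library size alone among them. Counts did not use strand, so reads of the antisense gene *Gm28863*, which overlaps *Adm*, cannot be told apart from it.

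**Figure D1:**
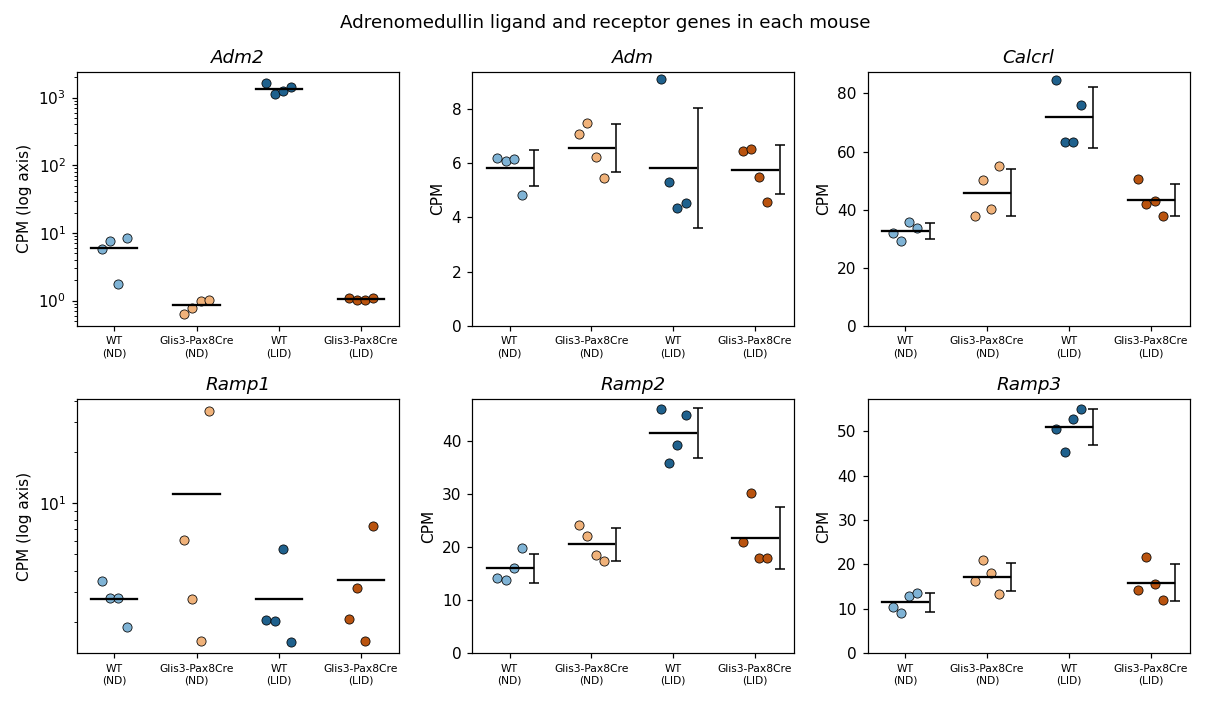
Level of each of the 6 genes in each mouse (y axes, CPM, on a log axis for *Adm2* and *Ramp1*), by group (x axes), 4 mice each; points are mice, horizontal bars group means and, on the linear axes, vertical bars the SD around the mean. *Adm2* is above 1000 CPM in the WT(LID) mice and near 1 CPM in the *Glis3*-Pax8Cre mice, *Calcrl*, *Ramp2* and *Ramp3* are highest in WT(LID), and *Ramp1* is led by 1 *Glis3*-Pax8Cre(ND) mouse at 35.0 CPM.

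The 250 bases upstream of the start of each ligand gene are printed to set the gene that differed most beside the ligand gene that was not called. They come from RefSeq's table of gene starts on build GRCm38.p6, which is mm10, and 5 of the 6 members had an entry there. *Adm2* lies on chromosome 15 from 89322720 to 89324730 on the plus strand in 3 exon blocks, and the printed bases are chr15:89322470-89322719, plus strand. *Adm* lies on chromosome 7 from 110627669 to 110629819 on the plus strand in 4 exon blocks, and its printed bases, before the RefSeq start, are chr7:110627407-110627656, plus strand. Capitals mark a match to the letters searched.
Adm2: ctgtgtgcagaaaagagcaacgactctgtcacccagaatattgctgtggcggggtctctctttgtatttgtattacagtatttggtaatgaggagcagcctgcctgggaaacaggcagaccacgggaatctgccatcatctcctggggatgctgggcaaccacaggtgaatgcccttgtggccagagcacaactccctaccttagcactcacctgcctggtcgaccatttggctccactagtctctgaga
Adm: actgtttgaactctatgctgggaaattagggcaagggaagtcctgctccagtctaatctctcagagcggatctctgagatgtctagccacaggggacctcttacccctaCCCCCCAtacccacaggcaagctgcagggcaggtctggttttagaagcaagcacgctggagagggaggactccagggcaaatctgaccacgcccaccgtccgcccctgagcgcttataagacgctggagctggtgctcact
Both strands were searched for 6 motifs, given here with their share of 32851 promoters of this length. TGGGGGG is the core of the GLIS binding site (7.67%). The cAMP response element TGACGTCA (1.55%) also contains its short form TGACG (17.8%). The others were the hypoxia response core ACGTG (16.6%), the amino acid response element TGATGNAA of ATF4 (3.45%) and AGGAAG, 1 form of the ETS site (29.5%). Other forms of the ETS site were not searched. The *Adm* promoter held 1 match, the GLIS core read on the other strand as CCCCCCA, and the *Adm2* promoter held none of the 6. A match describes the letters and not binding, and a missing match says only that these letters are not in the window.

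*Calcrl* (Entrez 54598) encodes the receptor itself, a G protein-coupled receptor that is abundant in endothelial cells. It was highest in WT(LID), followed by both *Glis3*-Pax8Cre groups, and lowest in WT(ND). Replicates 1 to 4 had 32.0, 29.0, 35.6 and 33.8 CPM in WT(ND), 84.7, 63.4, 63.2 and 75.9 CPM in the WT(LID) mice, 37.8, 50.2, 40.3 and 55.2 CPM in *Glis3*-Pax8Cre(ND), and 50.7, 41.9, 43.0 and 37.8 CPM in *Glis3*-Pax8Cre(LID). Both WT groups were separate from all other groups, and only the 2 *Glis3*-Pax8Cre groups overlapped. LID raised *Calcrl* 2.20-fold in WT (log2 fold change 1.14, standard error 0.13, edgeR adjusted p = 8.57e-06). Under LID it was 1.66-fold lower in *Glis3*-Pax8Cre than in WT (log2 fold change -0.73, standard error 0.13, edgeR adjusted p = 0.000601), and on ND 1.41-fold higher (log2 fold change 0.49, standard error 0.13, edgeR adjusted p = 0.0164). The higher level on ND passed the threshold narrowly: without the 4 libraries with thymocyte markers over 100 CPM the log2 fold change was 0.39 (edgeR adjusted p = 0.0851), and without WT(ND) replicate 2 it was 0.44 (edgeR adjusted p = 0.0564). The diets did not separate *Calcrl* in *Glis3*-Pax8Cre thyroids (log2 fold change -0.08, 95% interval -0.36 to 0.19, edgeR adjusted p = 0.669), and the interaction was -1.22 (standard error 0.19, edgeR adjusted p = 0.000502).

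*Ramp3* (Entrez 56089), whose product makes the adrenomedullin receptor that is recycled after activation, had the largest differences of the receptor genes. It had 10.5, 8.99, 12.9 and 13.5 CPM in WT(ND), 50.6, 45.5, 52.8 and 55.0 CPM in the WT(LID) mice, 16.2, 20.9, 18.1 and 13.4 CPM in *Glis3*-Pax8Cre(ND), and 14.2, 21.7, 15.6 and 11.9 CPM in the *Glis3*-Pax8Cre(LID) mice. The lowest WT(LID) mouse was at more than 2-fold the highest mouse of any other group, and the other 3 groups overlapped. LID raised *Ramp3* 4.44-fold in WT (log2 fold change 2.15, standard error 0.18, edgeR adjusted p = 4.21e-07), and under LID it was 3.21-fold lower in *Glis3*-Pax8Cre (log2 fold change -1.68, standard error 0.18, edgeR adjusted p = 6.29e-06). The difference on ND, higher in *Glis3*-Pax8Cre (log2 fold change 0.58, standard error 0.18, edgeR adjusted p = 0.0316), was weak: the groups overlapped, and the call was lost with the replicate block (0.57, adjusted p = 0.0529), in a fit of the 8 mice alone (0.60, adjusted p = 0.0579) and without any one of WT(ND) replicates 1 and 2 and *Glis3*-Pax8Cre(ND) replicates 2 and 3 (edgeR adjusted p from 0.0693 to 0.0978). In *Glis3*-Pax8Cre thyroids the diets differed by -0.12 (95% interval -0.49 to 0.26, edgeR adjusted p = 0.659). The interaction of -2.27 (standard error 0.25, edgeR adjusted p = 3.62e-05) was the largest of the receptor genes in size among those called.

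*Ramp2* (Entrez 54409) encodes the partner that mouse embryos need for vessel development. Its level was 14.1, 13.8, 16.1 and 19.9 CPM in WT(ND), 45.9, 35.9, 39.2 and 44.8 CPM in the WT(LID) mice, 24.1, 22.1, 18.5 and 17.3 CPM in *Glis3*-Pax8Cre(ND), and 21.0, 30.2, 18.0 and 17.8 CPM in *Glis3*-Pax8Cre(LID). WT(LID) was again above all other mice, and *Glis3*-Pax8Cre(LID) replicate 2 came closest. LID raised *Ramp2* 2.59-fold in WT (log2 fold change 1.37, standard error 0.17, edgeR adjusted p = 1.76e-05), and it was 1.90-fold lower in *Glis3*-Pax8Cre under LID (log2 fold change -0.93, standard error 0.17, edgeR adjusted p = 0.000684). It was not called between genotypes on ND (0.36, 95% interval -0.01 to 0.72, edgeR adjusted p = 0.156) or between diets in *Glis3*-Pax8Cre thyroids (0.09, 95% interval -0.27 to 0.45, edgeR adjusted p = 0.734), and the interaction was -1.29 (standard error 0.24, edgeR adjusted p = 0.00268).

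*Ramp1* (Entrez 51801), the CGRP receptor partner, did not follow the other receptor genes. It had 3.46, 2.77, 2.77 and 1.87 CPM in WT(ND), 2.06, 2.02, 5.34 and 1.53 CPM in the WT(LID) mice, 6.02, 2.74, 1.55 and 35.0 CPM in *Glis3*-Pax8Cre(ND), and 2.07, 3.17, 1.53 and 7.31 CPM in *Glis3*-Pax8Cre(LID). In each group the mouse with the most thymocyte markers also had the most *Ramp1*: these were WT(ND) replicate 1 (137.9 CPM summed over 7 markers), WT(LID) replicate 3 (200.1 CPM), *Glis3*-Pax8Cre(LID) replicate 4 (291.9 CPM) and *Glis3*-Pax8Cre(ND) replicate 4 (2346 CPM). The other 12 mice had from 1.53 to 6.02 CPM of *Ramp1*. Whether thymic tissue in the dissection carried this *Ramp1* was not tested. The log2 fold change between genotypes on ND was 2.07 (95% interval 0.27 to 3.87, edgeR adjusted p = 0.0989), was past the threshold in DESeq2 (2.07, adjusted p = 0.0444), and was 0.31 (edgeR adjusted p = 0.756) without *Glis3*-Pax8Cre(ND) replicate 4. The other log2 fold changes were 0.36 between genotypes under LID (edgeR adjusted p = 0.789), 0.01 between diets in WT (adjusted p = 0.994) and -1.69 in *Glis3*-Pax8Cre thyroids (adjusted p = 0.148), with intervals at least 3 log2 units wide.

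**Figure D2:**
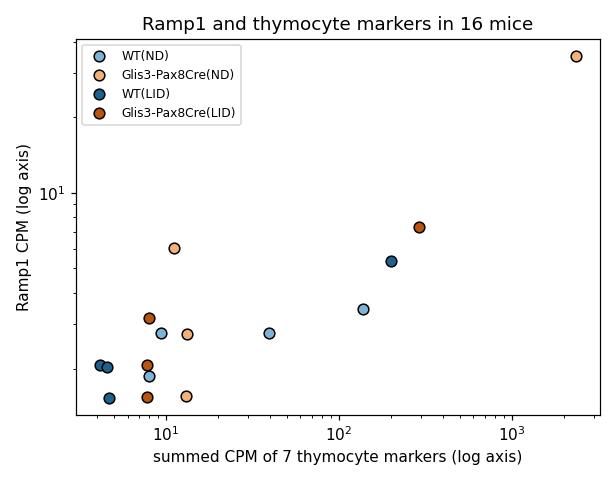
*Ramp1* (y axis, CPM, log axis) against the summed CPM of 7 thymocyte markers (x axis, log axis) in the 16 mice, coloured by group; each point is a mouse. The 4 mice over 100 CPM of thymocyte markers have 3.46 to 35.0 CPM of *Ramp1*, and of the other 12 mice 1 *Glis3*-Pax8Cre(ND) mouse reaches 6.02 CPM.

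Counted over the members, *Adm2*, *Calcrl*, *Ramp2* and *Ramp3* (4 of 6) were called lower in *Glis3*-Pax8Cre(LID) thyroids compared to WT(LID), and no member was called higher (14.9% of all genes tested). Of all genes tested in that comparison 15.4% were called lower and 30.2% in either direction, and these 4 members were also the ones whose groups of 4 did not overlap, as was the case for 35.5% of all genes. The median log2 fold change of the 6 members was -0.83, beside 0.01 over all genes. With LID in WT, *Adm2*, *Calcrl*, *Ramp2* and *Ramp3* were called higher and none lower, where 20.9% of all genes were called higher, 20.8% lower, 41.7% were called in either direction and 46.9% did not overlap, with a median over the members of 1.26 beside -0.03 over all genes. On ND 1 member was called lower and 2 higher in *Glis3*-Pax8Cre (background 9.25% lower, 10.3% higher and 19.6% in either direction), and the groups of *Adm2* and *Calcrl* did not overlap (19.5% of all genes). Between diets in *Glis3*-Pax8Cre thyroids 0 of 6 members were called by edgeR, against 25.4% of all genes, none was called by DESeq2 or past an unadjusted p of 0.05, and the groups of all 6 overlapped (21.9% of all genes did not overlap). The interaction was called for 4 members, all negative, against 7.41% of genes called negative and 11.8% in either direction. Under a stricter rule, with an adjusted p under 0.01 and more than 2-fold change required, *Adm2* and *Ramp3* were still called between genotypes under LID (7.93% of all genes in either direction), whereas *Calcrl* and *Ramp2* changed by less than 2-fold.

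**Figure D3:**
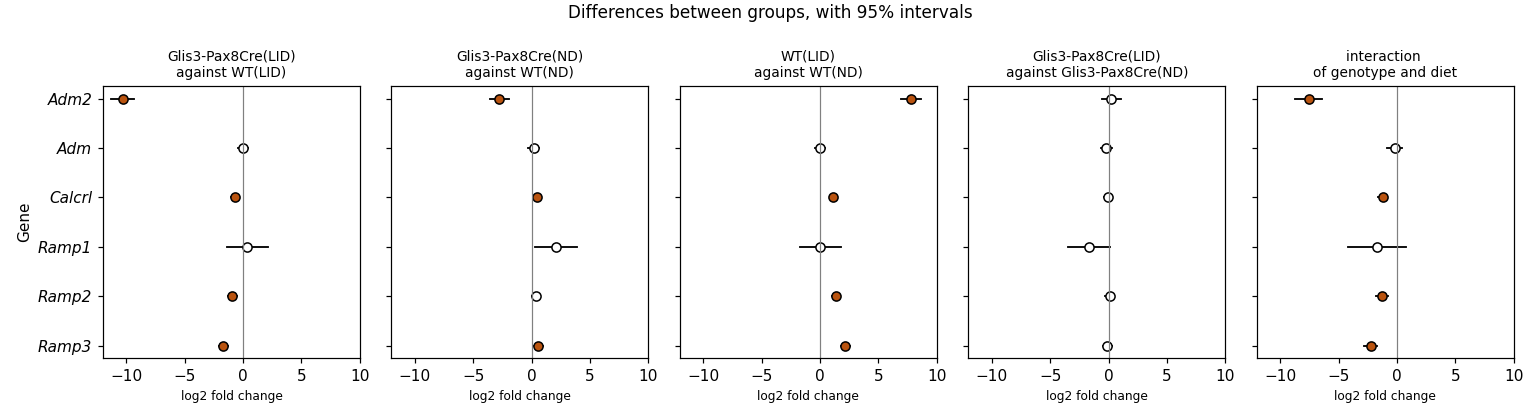
Log2 fold change (x axes) of each of the 6 genes (y axis) in the 4 comparisons of groups and in the interaction, from 1 edgeR fit of 16 mice; points are estimates, horizontal lines 95% intervals, and filled points are called at an adjusted p under 0.05. *Adm2*, *Calcrl*, *Ramp2* and *Ramp3* lie below 0 between genotypes under LID and above 0 between diets in WT, and no point is filled between diets in *Glis3*-Pax8Cre thyroids.

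Levels of different genes were compared per kb of exon, as CPM divided by the length of the exons of the transcripts matched to RefSeq. In WT(ND) the receptor subunits led, with 13.6 ± 2.36 CPM per kb for *Ramp2*, 9.29 ± 1.71 for *Ramp3* and 6.68 ± 0.575 for *Calcrl*, ahead of the ligand genes *Adm2* (4.56 ± 2.28) and *Adm* (4.18 ± 0.478). In WT(LID) *Adm2* reached 1039 ± 168 CPM per kb, *Ramp3* had 41.3 ± 3.29, *Ramp2* 35.2 ± 4.03, *Calcrl* 14.7 ± 2.13 and *Adm* 4.19 ± 1.60. In *Glis3*-Pax8Cre(LID) the order was *Ramp2* (18.5 ± 4.96), *Ramp3* (12.9 ± 3.40), *Calcrl* (8.88 ± 1.10), *Adm* (4.14 ± 0.652) and *Adm2* (0.807 ± 0.0372). *Glis3*-Pax8Cre(ND) had 17.4 ± 2.65 CPM per kb for *Ramp2*, 13.9 ± 2.57 for *Ramp3*, 9.40 ± 1.68 for *Calcrl*, 4.72 ± 0.648 for *Adm* and 0.660 ± 0.147 for *Adm2*. *Ramp1* was at 3.75 ± 5.27 there and between 0.899 and 1.17 in the other groups. The ranges of *Ramp2* and *Ramp3* overlapped in all groups except WT(ND), and those of *Ramp3* and *Calcrl* in all groups except WT(LID). In WT(ND) *Adm2* overlapped with both *Calcrl* and *Adm*. Where ranges overlapped, the order is that of the group means only. Ranges ignore that the genes were read in the same mice, and the order per kb was not tested within mice. In WT(ND) *Adm2* was thus at the level of *Adm*, in WT(LID) far above it, and in *Glis3*-Pax8Cre(LID) below it.

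The receptor genes were read in whole glands, in which fewer cells of a type and less RNA per cell cannot be told apart. Endothelial markers moved with them: summed over 11 markers, the median was 897 CPM in WT(ND) (range 810 to 1049), 1186 CPM in *Glis3*-Pax8Cre(ND) (1026 to 1514), 2283 CPM in the WT(LID) mice (2171 to 2416) and 1112 CPM in *Glis3*-Pax8Cre(LID) (978 to 1359). Of the 11 markers, 10 were called higher with LID in WT, and 8 were called lower and 0 higher in *Glis3*-Pax8Cre under LID, with medians of 1.22 and -1.07 in log2 fold change (over all genes, 20.9% were called higher with LID in WT, and 15.4% lower and 14.9% higher in *Glis3*-Pax8Cre under LID). Pericyte and smooth muscle markers had medians, summed over 9 markers, of 607, 1429, 816 and 832 CPM in WT(ND), in WT(LID) and in the *Glis3*-Pax8Cre groups on ND and on LID. Of the 9, 6 were called higher and 0 lower with LID in WT, and 0 higher and 6 lower in *Glis3*-Pax8Cre under LID, whereas *Kcnj8* had a lower mean in WT(LID) (9.99 CPM) than in WT(ND) (14.6 CPM) without being called. Lymphatic endothelial markers, summed over 5, were at 54.7, 121, 91.1 and 76.6 CPM in the same order, with 3 called higher and 0 lower with LID in WT and 0 higher and 2 lower in *Glis3*-Pax8Cre under LID. *Prox1*, a defining gene of that list, had its highest mean in WT(ND) (4.64 CPM, against 3.21 CPM in WT(LID)), and *Mmrn1* its lowest in WT(LID) (9.44 CPM). In none of these lists was a marker at 0 in a mouse. Among the remaining lists, fibroblast markers summed over 5 genes had medians of 573, 1154, 401 and 587 CPM in the same order, macrophage markers (5 genes) 140, 171, 230 and 189 CPM, parathyroid markers (3 genes) 5215, 1224, 3418 and 1170 CPM, and adipocyte markers (5 genes) 522, 152, 227 and 313 CPM. Of the 5 macrophage markers, 2 were called higher and 0 lower with LID in WT, with a median log2 fold change of -0.075. *Mrc1* had means of 20.4 CPM in WT(ND) and 53.6 CPM in WT(LID), and *Cd68* was also higher in WT(LID). The means of *Adgre1*, *Csf1r* and *C1qa* were lower in WT(LID) than in WT(ND). Skeletal muscle markers (5 genes) ran from 1.55 to 1245 CPM between mice and none was called in a comparison. The fibroblast sum was also highest in WT(LID), but 2 of its 5 markers were called higher and 2 lower with LID in WT: the collagen genes *Col1a1* and *Col1a2* had means of 468 and 500.3 CPM in WT(LID) against 133 and 170.4 CPM in WT(ND), whereas *Pdgfra*, *Dcn* and *Lum* had their highest means in WT(ND). The part of these cell types in the receptor genes was not tested beyond the endothelial ratios that follow.

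Each receptor gene was therefore also divided by the summed endothelial markers of the same mouse. *Calcrl* had 35.9 ± 1.80 CPM per 1000 CPM of endothelial markers in WT(ND), 31.5 ± 5.09 in WT(LID), 38.2 ± 10.4 in *Glis3*-Pax8Cre(ND) and 38.9 ± 9.09 in *Glis3*-Pax8Cre(LID). *Ramp2* had 17.5 ± 2.30, 18.1 ± 2.13, 16.9 ± 2.97 and 19.1 ± 3.51 in the same order. For both genes the 4 groups overlapped. *Ramp3* had 12.5 ± 1.23 in WT(ND), 22.2 ± 1.09 in WT(LID), 13.96 ± 0.695 in *Glis3*-Pax8Cre(ND) and 13.8 ± 1.80 in *Glis3*-Pax8Cre(LID), and the WT(LID) mice stayed above all others. In the exact two-sided permutation test over 8 mice, *Ramp3* per endothelial marker was higher in WT(LID) than in WT(ND) by 0.84 on the log2 scale and differed by -0.70 between *Glis3*-Pax8Cre(LID) and WT(LID), where it was higher in WT(LID), each at p = 0.0286, the smallest p that 4 against 4 mice allow. Adjusted over the 16 tests made, both were 0.229, so neither passed. With no other test at the smallest p, an adjusted p under 0.05 was out of reach, so this outcome decides nothing. The *Ramp3* difference between genotypes under LID kept its sign with 10 of the 11 markers used alone (log2 difference from -1.38 to 0.03, the exception being *Cdh5*), and that between diets in WT with all 11 (0.30 to 2.26). For *Calcrl* and *Ramp2* the sign under LID depended on the marker: 5 of 11 markers gave a lower value in *Glis3*-Pax8Cre for each.

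Ratios of the subunit counts within a mouse do not depend on any marker or on library size. These ratios were added after the values had been seen. *Ramp3* over *Ramp2* was 0.740, 0.651, 0.802 and 0.679 in WT(ND), 1.10, 1.27, 1.35 and 1.23 in WT(LID), 0.674, 0.949, 0.976 and 0.775 in *Glis3*-Pax8Cre(ND), and 0.675, 0.718, 0.870 and 0.669 in *Glis3*-Pax8Cre(LID). *Ramp3* was thus counted more often than *Ramp2* in each WT(LID) mouse and less often in each of the other 12. The log2 ratio rose by 0.78 with LID in WT and differed by -0.76 between *Glis3*-Pax8Cre(LID) and WT(LID). Each was at p = 0.0286 in the exact two-sided permutation test, the smallest p possible. Adjusted over 12 tests both were 0.0857, which does not pass. Too few of the tests were at that p for an adjusted p under 0.05, so this outcome decides nothing either. *Ramp3* over *Calcrl* was 0.349 ± 0.0396 in WT(ND), 0.718 ± 0.0968 in WT(LID), 0.385 ± 0.0953 in *Glis3*-Pax8Cre(ND) and 0.369 ± 0.105 in *Glis3*-Pax8Cre(LID), and its WT(LID) mice did not overlap with the rest either. *Ramp2* over *Calcrl* overlapped in all comparisons, with means from 0.462 to 0.579.

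**Figure D4:**
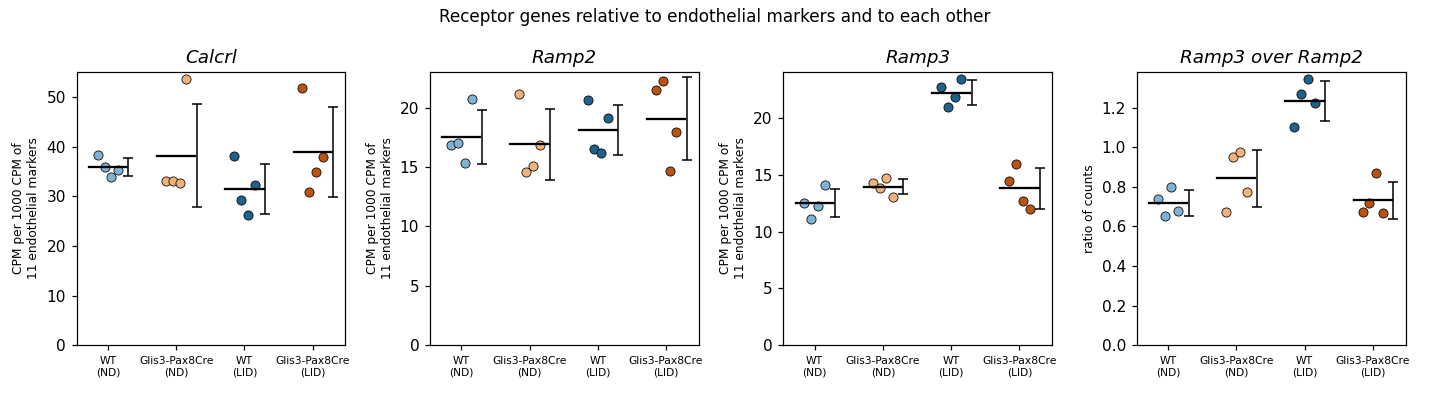
*Calcrl*, *Ramp2* and *Ramp3* per 1000 CPM of 11 summed endothelial markers, and the ratio of *Ramp3* to *Ramp2* counts (y axes), by group (x axes), 4 mice each; points are mice, horizontal bars means and vertical bars SD. WT(LID) stands apart for *Ramp3* (20.9 to 23.5) and for the ratio (1.10 to 1.35), and the groups overlap for *Calcrl* and *Ramp2*.

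The upstream bases of *Calcrl* and *Ramp3* are printed because both genes rose in WT(LID). *Calcrl* lies on chromosome 2 from 84330627 to 84425266 on the minus strand in 16 exon blocks, and its printed bases, read along the gene, are chr2:84425267-84425516, minus strand. *Ramp3* lies on chromosome 11 from 6658533 to 6677475 on the plus strand in 3 exon blocks. It overlaps the pseudogene *Gm11978* of the other strand, which was counted as a gene of its own. Reads over bases shared by both genes could not be assigned by strand. Its printed bases are chr11:6658283-6658532, plus strand. Capitals again mark matches to the 6 motifs.
Calcrl: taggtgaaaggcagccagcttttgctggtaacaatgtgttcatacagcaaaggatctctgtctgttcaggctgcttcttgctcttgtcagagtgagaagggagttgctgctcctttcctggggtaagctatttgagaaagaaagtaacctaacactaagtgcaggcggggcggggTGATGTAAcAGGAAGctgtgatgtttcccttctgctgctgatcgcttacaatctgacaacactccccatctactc
Ramp3: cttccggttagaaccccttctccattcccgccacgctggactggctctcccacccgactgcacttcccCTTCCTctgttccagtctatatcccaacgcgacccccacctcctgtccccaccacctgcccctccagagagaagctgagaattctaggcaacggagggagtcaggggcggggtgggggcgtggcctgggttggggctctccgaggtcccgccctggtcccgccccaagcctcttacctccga
*Calcrl* held 1 match to the amino acid response element (TGATGTAA) and 1 to the searched ETS form AGGAAG. ETS factors are active in endothelial cells. *Ramp3* held 1 match to the same form, read on the other strand (CTTCCT). Other ETS forms were not searched, so these matches do not count all ETS sites. The letters AGGAAG are common, being in 29.5% of all promoters of this length, and no GLIS core was found in either.

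Across the 16 mice, log2 CPM of *Ramp2* and *Ramp3* had a Pearson correlation of 0.96, *Calcrl* and *Ramp3* of 0.88 and *Calcrl* and *Ramp2* of 0.86. These describe 16 mice in 4 groups, and the separation of WT(LID) is shared by all of the points. *Adm* had correlations from -0.21 to 0.04 with the other members. Of 11669 genes with a mean of at least 5 CPM, those most like *Ramp3* were *Gcnt2* (r = 0.99), *Eng* (0.98) and *Rasip1* (0.98). *Eng*, the endothelial co-receptor endoglin, had means of 109 CPM in WT(ND), 571 CPM in the WT(LID) group, 141 CPM in *Glis3*-Pax8Cre(ND) and 138 CPM in *Glis3*-Pax8Cre(LID). Those most like *Ramp2* were *Slc9a3r2* (0.98), *Gng11* (0.97) and *Rasip1* (0.97), and those most like *Calcrl* were *Sema7a* (0.95), *Sh3rf1* (0.94) and *Adgre5* (0.94).

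For *Adm2* the most similar genes were *Mras* (0.99), *Lrrc32* (0.99) and *Dnase1l2* (0.98). *Mras* had 21.3, 75.7, 14.2 and 14.9 CPM in WT(ND), in WT(LID) and in the *Glis3*-Pax8Cre groups on ND and on LID, and *Dnase1l2* 9.76, 123, 5.03 and 7.03 CPM, so their order of groups was that of *Adm2* over a much smaller range. *Adm* had no close match (*Dhdds*, 0.73). *Ramp1* was most like *Bin2* (0.95), *Rcsd1* (0.93) and *Sash3* (0.93), genes of blood cells. Of these, *Sash3* had a mean of 31.6 CPM in *Glis3*-Pax8Cre(ND) and 5.85 to 7.34 CPM in the other groups. In *Glis3*-Pax8Cre(ND) *Ramp1* was led by replicate 4 (35.0 CPM), and these correlations were not repeated without that mouse.

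Of 10 related genes that make, modify, bind or clear these peptides, 8 had enough counts to be tested. Under LID 2 were called higher and 2 lower in *Glis3*-Pax8Cre (14.9% and 15.4% of all genes), with a median log2 fold change of 0.02 beside 0.01 over all genes. *Pam*, the enzyme that amidates adrenomedullin and other peptide hormones, had 616, 588, 597 and 560 CPM in the WT(LID) mice, whereas the LID-fed *Glis3*-Pax8Cre mice had 1262, 1109, 1202 and 1157 CPM, without overlap. It was higher in *Glis3*-Pax8Cre on both diets, by 1.00 under LID (standard error 0.17, edgeR adjusted p = 0.000314) and 0.97 on ND (standard error 0.17, edgeR adjusted p = 0.00117), and was not called between diets. *Mme*, which encodes neprilysin, a peptidase that cleaves adrenomedullin, had 35.9, 44.7, 107.6 and 60.6 CPM in WT(ND), 16.3, 14.2, 13.6 and 16.7 CPM in the WT(LID) mice, 96.3, 153.7, 149.7 and 72.5 CPM in *Glis3*-Pax8Cre(ND) and 104, 65.6, 79.6 and 85.9 CPM in *Glis3*-Pax8Cre(LID). It fell with LID in WT (log2 fold change -2.03, edgeR adjusted p = 0.000155) and was higher in *Glis3*-Pax8Cre by 2.47 under LID (adjusted p = 5.12e-05) and by 0.93 on ND (adjusted p = 0.0464), with an interaction of 1.54 (adjusted p = 0.0320). *Mme* was thus lowest in the mice in which *Adm2* and *Ramp3* were highest.

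*Ackr3*, an atypical receptor that takes up adrenomedullin, rose with LID in both genotypes. It had 24.5, 38.3, 27.04 and 24.7 CPM in WT(ND), 125, 97.9, 94.6 and 122 CPM in the WT(LID) mice, 42.3, 32.6, 32.2 and 29.5 CPM in *Glis3*-Pax8Cre(ND) and 80.8, 78.0, 85.4 and 86.9 CPM in the *Glis3*-Pax8Cre(LID) mice. The rise was 1.94 in WT (edgeR adjusted p = 1.64e-07) and 1.28 in *Glis3*-Pax8Cre thyroids (edgeR adjusted p = 2.81e-05), and the interaction of -0.66 passed narrowly (edgeR adjusted p = 0.0499). *Ackr3* was the only one of the 8 related genes called between diets in *Glis3*-Pax8Cre thyroids. *Crcp*, a component of CGRP receptor signalling, was higher in *Glis3*-Pax8Cre on ND (0.26, edgeR adjusted p = 0.0257). *Gpr182*, another atypical receptor of the endothelium, stayed between 1.56 and 3.58 CPM and was not called.

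*Calca*, which encodes calcitonin and CGRP and is a C-cell marker, was highest in WT(ND) at 3213 ± 630 CPM. It was lower on ND in *Glis3*-Pax8Cre (1743 ± 508 CPM, log2 fold change -0.88, edgeR adjusted p = 0.0148) and lower in WT(LID) (1454 ± 219 CPM, -1.14, edgeR adjusted p = 0.00101), and *Glis3*-Pax8Cre(LID) had 1308 ± 348 CPM. Counts per gene do not separate the calcitonin and CGRP transcripts. Summed C-cell markers had medians of 7705 CPM in WT(ND), 2698 CPM in WT(LID), 4866 CPM in *Glis3*-Pax8Cre(ND) and 2521 CPM in *Glis3*-Pax8Cre(LID). *Calca* itself and *Chga* make up most of this sum of 5 genes. Of the 5, 2 were called higher and 2 lower with LID in WT (20.9% and 20.8% of all genes). *Ret* had means of 113 CPM in WT(ND) and 192 CPM in WT(LID), and *Slc18a1* 6.57 and 9.38 CPM. On ND 2 of the 5 were called higher and 1 lower in *Glis3*-Pax8Cre (10.3% and 9.25% of all genes). The part of C cells in *Calca* was not tested. *Calcb*, which encodes another CGRP, was at most 2.14 CPM and was not called, and *Iapp* and *Calcr*, for amylin and the calcitonin receptor, were at most 0.607 and 0.196 CPM and were not tested.

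**Figure D5:**
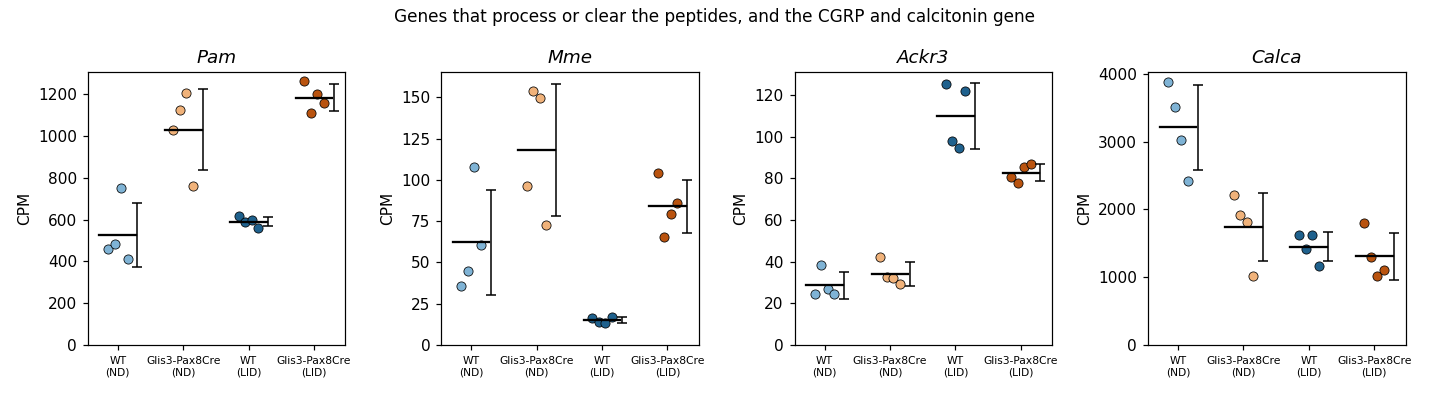
*Pam*, *Mme*, *Ackr3* and *Calca* (y axes, CPM) in each mouse by group (x axes), 4 mice each; points are mice, horizontal bars means and vertical bars SD. *Pam* is higher in both *Glis3*-Pax8Cre groups, *Mme* is lowest in WT(LID) (13.6 to 16.7 CPM), *Ackr3* is higher under LID in both genotypes and *Calca* is highest in WT(ND).

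Genes known to respond to low oxygen, which induces *Adm* in many cells, moved in both directions. Of 11 such genes, 4 were called higher and 3 lower with LID in WT (median log2 fold change 0.22), beside 20.9% and 20.8% of all genes, and 2 higher and 3 lower in *Glis3*-Pax8Cre under LID (median -0.10), beside 14.9% and 15.4%. Their log2 fold changes ran from -1.12 to 0.80 with LID in WT and from -0.95 to 0.82 between genotypes under LID. *Slc2a1*, a glucose transporter gene, rose by 0.80 with LID in WT (edgeR adjusted p = 1.83e-05). Under LID it was lower in *Glis3*-Pax8Cre (log2 fold change -0.82, edgeR adjusted p = 2.02e-05). There *Ankrd37* was at -0.95 without passing (edgeR adjusted p = 0.132), at low means of 0.469 CPM in *Glis3*-Pax8Cre(LID) and 0.904 CPM in WT(LID). Genes of the ATF4 stress response, which includes *Adm2* induction in other cells, were called higher with LID in WT for 0 of 10 listed and lower for 2 (median -0.14), the latter close to the share of 20.8% over all genes. The lower genes were led by *Phgdh*, which encodes an enzyme of serine synthesis (log2 fold change -1.18, edgeR adjusted p = 0.00210). Under LID 3 of these 10 were higher and 0 lower in *Glis3*-Pax8Cre (median 0.12, beside 14.9% and 15.4% of all genes called), with *Sesn2* at 0.56 and *Trib3* at 0.53 (edgeR adjusted p = 0.0219 and 0.00559).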

How the data were processed

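RNA-Seq was performed on thyroid glands of 16 mice, 4 in each of 4 groups taken from the GEO labels. Per the study's methods and the submitters' processing notes, the authors first dropped read pairs of average base quality 20 or less. STAR 2.5 then aligned the remainder to mm10, with non-canonical introns removed, and featureCounts 1.5.0-p1 assigned the pairs to RefSeq genes, ignoring strand. The deposited table holds these raw counts, which were not normalized. The study used DESeq2 for its own comparisons. The depth, 13892352 to 461077969 read pairs, limits precision most in the shallowest library, and no 2 libraries of a group were duplicates (chi-squared over degrees of freedom of 34.5 or more in 24 pairs). Counts of 4 genes of chromosome Y were 0 in every mouse.

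The count analysis used edgeR 4.0.16 in R 4.3.3, with filterByExpr on the groups (16630 genes), TMM, a robust quasi-likelihood fit of the 16 mice and Benjamini-Hochberg adjustment over all genes tested. Standard errors follow from each log2 fold change and F statistic, and intervals are 95%. Calling was tested on simulated data. Ratios to 11 endothelial markers and ratios of subunit counts were compared by exact two-sided permutation tests. Alternatives were DESeq2 1.42.0, other normalizations and filters, the 8 mice of a comparison alone, a replicate block, a stricter call and each mouse left out.

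The 6 genes, the related, hypoxia and ATF4 lists and the marker lists were chosen with earlier results of these data known. Named genes are the 6, the related list, the 3 genes most correlated with each of the 6 over the 16 mice among those with a mean of at least 5 CPM, and for the hypoxia and ATF4 lists up to 2 genes per comparison. The sources used here do not say whether mice with the same replicate number were handled together. Deviations from the group mean of same-numbered mice were correlated over genes from 0.212 to 0.648 between the *Glis3*-Pax8Cre groups, which were therefore treated as paired in an alternative, but from -0.521 to 0.140 in the other comparisons. Lengths and loci came from GENCODE annotation of mm10 and promoter sequences from RefSeq. Protein sequences were not used here. The values of 1 gene of the related list are not reported here.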

Additional observations from a re-analysis of the deposited data

Results flagged for a closer look

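The genotype difference differed between the diets, by the interaction in edgeR's quasi-likelihood test (Benjamini-Hochberg over 16630 genes), for *Adm2* (-7.57, adjusted p = 1.41e-06), *Calcrl* (-1.22, adjusted p = 0.000502), *Ramp2* (-1.29, adjusted p = 0.00268) and *Ramp3* (-2.27, adjusted p = 3.62e-05), and among the related genes for *Ackr3* (-0.66, adjusted p = 0.0499) and *Mme* (1.54, adjusted p = 0.0320). For *Calcrl* the genotype difference was positive on ND and negative under LID.

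In 3 of 24 sets of 4 mice (6 genes in 4 groups) 1 mouse stood apart from the other 3 by Dixon's test at the 95% level, and chance gives about 1 such mouse in 20 sets. These were WT(ND) replicate 4 for *Adm*, at 4.82 CPM below the others, *Glis3*-Pax8Cre(ND) replicate 4 for *Ramp1*, at 35.0 CPM above the others, and WT(LID) replicate 3 for *Ramp1*, at 5.34 CPM above the others. The last 2 are among the 4 libraries with thymocyte markers over 100 CPM.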

How the results depend on the processing

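The calls of *Adm2*, *Calcrl*, *Ramp2* and *Ramp3* between genotypes under LID and between diets in WT, and the 4 called interactions, kept their direction and their side of the threshold under every alternative except the stricter rule, which asks for an adjusted p under 0.01 together with more than 2-fold change, under which *Calcrl* (-0.73) and *Ramp2* (-0.93) were not called under LID. Of the values with a mouse left out, 462 of 480 kept direction and side, and of those under the other settings 283 of 300. Without each mouse in turn, *Adm2* under LID ran from -10.42 to -10.23 and *Ramp3* from -1.87 to -1.57.

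On ND, *Calcrl* was not called without the 4 mice with thymocyte markers over 100 CPM (0.39, a setting chosen after seeing the data) or under the stricter rule (0.49), and ran from 0.40 to 0.57 without each mouse in turn. *Ramp3* on ND was not called with only the 8 mice (0.60), the replicate block (0.57) or the stricter rule (0.58) and ran from 0.47 to 0.70. *Ramp1* on ND was called by DESeq2 (2.07) and ran from 0.31 to 2.43. The cause was not tested.

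Signs that turned were all of values not called. Library size alone, which shifted the median over all genes, in log2 fold change, by 0.146, 0.122, -0.157 and -0.133 in the 4 comparisons of groups, gave 0.12 for *Adm* between genotypes under LID, -0.15 for *Adm* and -0.16 for *Ramp1* between diets in WT, and -0.0414 for *Ramp2* between diets in *Glis3*-Pax8Cre thyroids. The replicate block gave 0.0140 for *Adm* and -0.00715 for *Ramp1* between genotypes under LID and -0.0374 for *Adm* between diets in WT. Apart from *Ramp3* on ND it changed no call of the 6 genes, in the paired *Glis3*-Pax8Cre mice alone either. Without the 4 mice with thymocyte markers *Ramp1* between diets in WT was -0.39 and *Calcrl* between diets in *Glis3*-Pax8Cre thyroids 0.0754. Without each mouse in turn, *Adm* ran from -0.14 to 0.28 between genotypes under LID, from -0.29 to 0.13 between diets in WT and from -0.33 to 0.0913 in the interaction. *Ramp1* ran from -0.27 to 0.90, from -0.53 to 0.21 and from -2.34 to 0.0426 in the same comparisons and from -2.33 to 0.0675 between diets in *Glis3*-Pax8Cre thyroids, where *Calcrl* ran from -0.17 to 0.00764 and *Ramp2* from -0.11 to 0.17.

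The number of genes called was 1319 between genotypes under LID, 690 on ND, 2075 between diets in WT, 832 in *Glis3*-Pax8Cre thyroids and 603 in the interaction under the stricter rule. With only the 8 mice it was 1653 on ND and 2374 between diets in *Glis3*-Pax8Cre thyroids, and without the 4 mice with thymocyte markers 2154 on ND. Without each mouse in turn it ran from 2053 (without WT(ND) replicate 4) to 3662 on ND.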
